A study of Mus musculus with 6 samples.

Results

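The genes described here encode the subunits of the mouse proteasome and the factors that assemble it, in fibro-adipogenic progenitors (FAPs), the mesenchymal progenitor cells of skeletal muscle. They were chosen by symbol, as Psma, Psmb, Psmc, Psmd, Psme, Psmf or Psmg followed by a digit, together with Pomp. This rule took 50 of the 16671 genes in the count table. Of these, 48 are proteasome genes, and Psmc3ip and Psme3ip1 match by symbol only.

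FAPs were sorted by FACS from hindlimb muscle of wild type mice aged 4 to 5 months, and bulk RNA was sequenced from 3 libraries of cells given C1q, the recognition component of the classical complement pathway, at 100 µg/ml, and from 3 libraries of cells given vehicle. Libraries started from 10 ng of total RNA, amplified with SMART-Seq v4. The labels do not say how long cells were treated, nor if each library is its own mouse or culture, so p-values measure the spread between these libraries, which may be technical. The extraction text of the labels names muscle stem cells, whereas the cell type label names FAPs.

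The proteasome is the protease that degrades ubiquitin-tagged proteins. Its 20S core is a barrel of alpha rings, which form the gate, and beta rings, which carry the active sites. The 19S regulator caps the barrel: its base holds ATPases that unfold the substrate, and its lid removes the ubiquitin chain. Interferon induces alternative catalytic subunits (Psmb8, Psmb9 and Psmb10) and the activator subunits Psme1 and Psme2, which form the immunoproteasome and favour the production of peptides for MHC class I. Skeletal muscle uses this system for protein turnover, and a fall in core proteasome activity is known to raise transcription of most subunit genes through the factor NRF1 (Nfe2l1), which binds antioxidant response elements.

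Reads assigned to genes numbered 31929119, 24046020 and 29818424 in C1q replicates 1 to 3, against 38861152, 29325341 and 5379209 in control replicates 1 to 3. Control 3 was the shallowest library, and 15255 genes had a read there, against 16413 to 16549 in the other libraries. Of the 10 FAP markers, 6 were higher with C1q (19.7% of all genes) and Pdgfrb was lower. Their summed normalised count (reads divided by a size factor for each library) was 672415 to 854236 with C1q and 394667 to 526247 in controls. Col1a1 and Col3a1 made up most of that sum, and Col3a1 did not pass (limma adjusted p = 0.0803). Of 12 muscle lineage markers, 8 were lower with C1q, where 18.7% of all genes were lower. With same-numbered libraries as a block 11 were lower (19.7% of all genes). The sum of the 12 was 16145 to 24669 with C1q and 26790 to 88917 in controls, highest in control 1. Pax7, the defining marker of muscle stem cells, was at 1.49 to 3.52 with C1q and at 0 to 7.58 in controls. The mural and glial list summed to 3720 to 5363 with C1q and 1602 to 2181 in controls, with 4 of 7 markers higher. After a trend with transcript length was removed, 5 FAP and 3 mural and glial markers were higher (14.2% of genes with a length). Then 1 FAP and 6 muscle lineage markers were lower (18.7%), and Pdgfra and Col1a1 were no longer called. None of the 7 endothelial or the 7 measured immune markers passed the main limma test, and the other 4 listed immune markers were not analysed here. With the block Emcn, an endothelial marker, was lower at -1.59 (limma adjusted p = 0.0253). With the length trend removed Csf1r, an immune marker, was lower at -0.79 (limma adjusted p = 0.0393).

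Transcripts of the constitutive proteasome were lower in C1q-treated FAPs. Of the 48 proteasome genes, 39 were lower and 0 were higher at an adjusted p below 0.05 (a limma linear model of log2(normalised count + 1), Benjamini-Hochberg over all 16671 genes), where 18.7% of all genes were lower and 19.7% were higher. With edgeR on recovered reads 40 were lower (25.1% of the 14304 genes tested), with DESeq2 39 (20.4% of 15698), and with a replicate block 42 (19.7% of all genes). The median log2 fold change of the 48 genes was -0.56, which is 68.0% of the control level, against 0.03 over all genes. The 3 C1q libraries lay below all 3 control libraries for 43 of the 48 genes, and above them for 0, where 25.4% of all genes were separated downward and 26.8% upward. All 31 constitutive 20S and 19S subunits without Psma8 were lower, with log2 fold changes of -1.11 to -0.35 and a median of -0.67. The 9 genes that did not pass were Psma8, Psmb8, Psmb9, Psmb10, Psme1, Psmg2, Psme3, Psme4 and Psmf1. In bulk RNA, fewer cells of a type and less RNA per cell cannot be told apart.

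**Figure D1:**
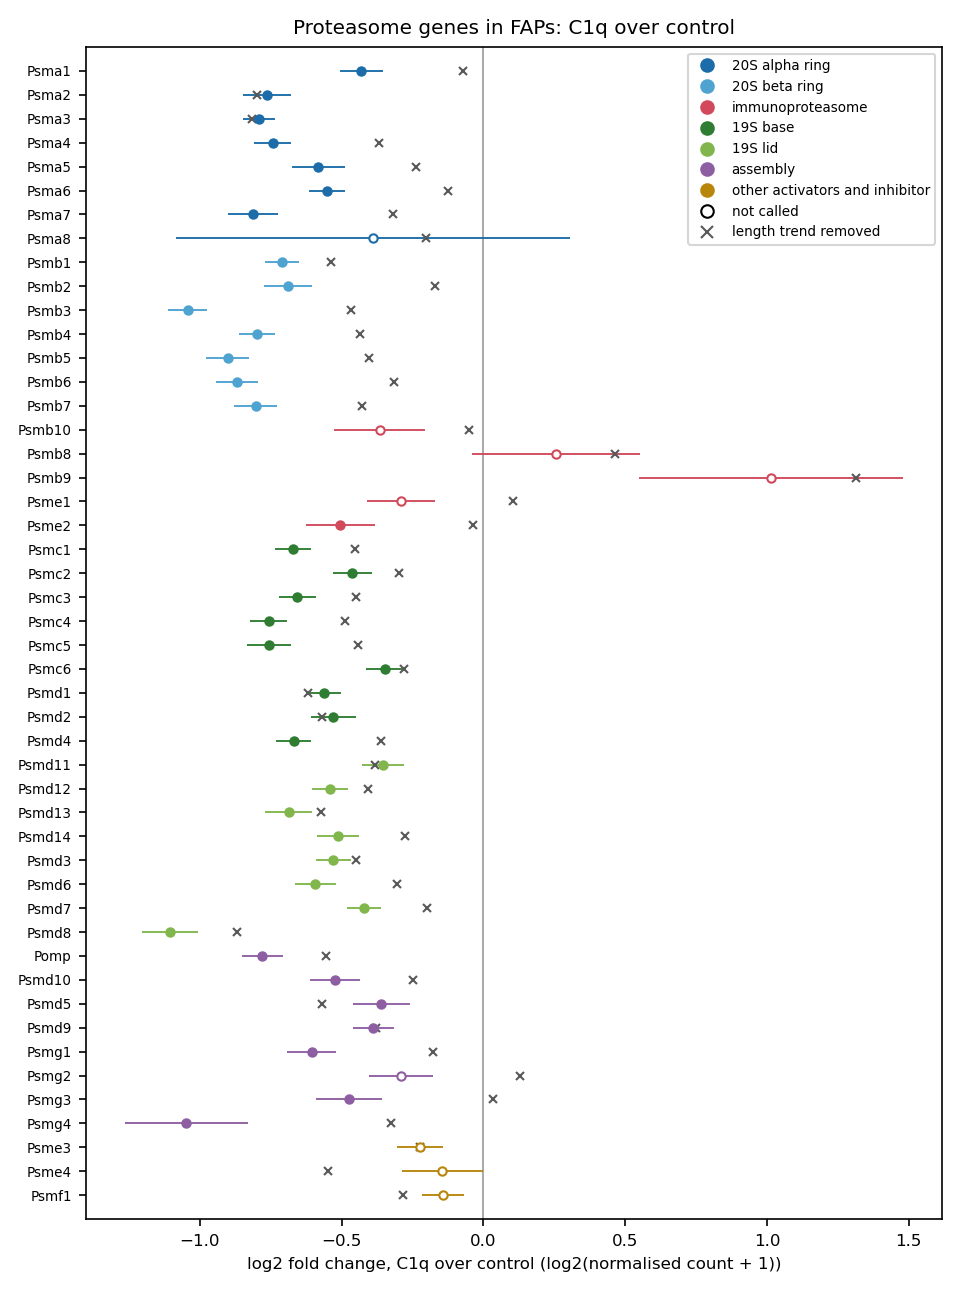
Log2 fold change, C1q over control, of the 48 proteasome genes on the scale of log2(normalised count + 1), coloured by class. Circles with bars are the estimate and its standard error (n = 3 libraries a group), open circles did not pass the test, and crosses are the estimate after a trend with transcript length was removed. The circles of all 31 constitutive 20S and 19S subunits other than Psma8 lie at -0.35 or lower, and those of Psmb9 and Psmb8 alone lie above 0. The crosses of Psme1, Psmg2 and Psmg3 lie above 0 as well.

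Proteasome genes took 0.279%, 0.268% and 0.277% of all normalised reads in the C1q libraries, against 0.440%, 0.430% and 0.395% in the controls. Those shares did not overlap, and all C1q libraries were within 0.268% to 0.279%. The constitutive 20S and 19S subunits alone took 0.226% ± 0.00551 of normalised reads with C1q and 0.360% ± 0.0210 in controls (SD, n = 3 each).

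The alpha ring, the outer ring of the 20S core that forms its gate, fell as a whole: 7 of 7 widely expressed subunits passed, with a median log2 fold change of -0.74. Psma7 had normalised counts of 1249, 1259 and 1265 with C1q, against 2295, 2415 and 1943 in controls. That was the largest fall of the ring, with a log2 fold change of -0.81 ± 0.09 (SE, limma adjusted p = 5.45e-04), and the groups did not overlap. Psma3 had 1330, 1307 and 1346 with C1q, against 2268, 2260 and 2368 in controls. The control libraries of Psma3 were among the closest to each other of all subunits, and its log2 fold change was -0.79 ± 0.06 (SE). Psma1, at the other end of the ring, had 1222, 1213 and 1233 with C1q and 1785, 1669 and 1505 in controls. Its log2 fold change was -0.43 ± 0.08 (SE), with groups that again did not overlap. Psma2, Psma4, Psma5 and Psma6 lay between Psma7 and Psma1, at -0.76, -0.74, -0.58 and -0.55. Psma8, an alpha subunit of male germ cells, was barely counted, at 15.5, 1.95 and 10.5 with C1q and 6.99, 7.72 and 17.0 in controls. Its groups overlapped and it did not pass the test.

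The beta ring, which carries the active sites, had 7 of 7 subunits lower and a median log2 fold change of -0.80, or 57.3% of the control level. This was the lowest median of the classes, but with the trend of fold change with transcript length removed that of the 19S base was lower, at -0.45 against -0.43. Psmb3, a structural beta subunit encoded at chr11:97703434-97713500 (GRCm38), had 1084, 1024 and 1022 normalised counts with C1q, against 2198, 2248 and 2011 in controls. Every C1q library of Psmb3 lay far below its lowest control, and its log2 fold change was -1.04 ± 0.07 (SE, limma adjusted p = 1.85e-04). The catalytic subunits fell alongside it. Psmb5, the chymotrypsin-like site, had 878, 966 and 867 with C1q and 1773, 1714 and 1577 in controls, a log2 fold change of -0.90 ± 0.08 (SE). Psmb6, the caspase-like site, had 1403, 1396 and 1347 with C1q and 2608, 2679 and 2304 in controls, a log2 fold change of -0.87 ± 0.07 (SE). Psmb7, the trypsin-like site, had 1303, 1366 and 1253 with C1q and 2467, 2262 and 2126 in controls, a log2 fold change of -0.80 ± 0.08 (SE). For none of these catalytic genes did a C1q library reach the lowest control. The remaining structural subunits Psmb1, Psmb2 and Psmb4 had log2 fold changes of -0.71, -0.69 and -0.80. Per kilobase of transcript, the level of the 20S subunits other than Psma8 with C1q ran from 467 for Psma3 to 1768 for Psmb4, and in controls from 808 for Psma3 to 3171 for Psmb6.

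The base of the 19S regulator holds the ATPase ring, its scaffold subunits and a ubiquitin receptor, and 9 of 9 genes were lower, with a median log2 fold change of -0.66. The 6 ATPases, Psmc1 to Psmc6, fell by a median of 0.66 on the log2 scale. Psmc4 had 1406, 1329 and 1385 normalised counts with C1q and 2408, 2366 and 2198 in controls. Its fold change, -0.76 ± 0.06 on the log2 scale (SE), was close to that of Psmc5, at -0.76 ± 0.08 (SE). Psmc6 moved least in the ring: it had 1071, 1057 and 1117 with C1q and 1454, 1302 and 1373 in controls, a log2 fold change of -0.35 ± 0.07 (SE, limma adjusted p = 0.00586). The groups of Psmc6 stayed apart, though by a smaller margin than those of Psmc4. Psmd2, a scaffold subunit and the most highly counted member, had 4566, 4734 and 4430 with C1q and 7265, 6376 and 6215 in controls, a log2 fold change of -0.53 ± 0.08 (SE). Psmd1, the other scaffold subunit, had 3439, 3471 and 3433 with C1q and 5287, 4962 and 5016 in controls. Its C1q libraries were nearly identical, all well under the controls. Psmd4, a ubiquitin receptor encoded at chr3:95032688-95042614 (GRCm38), had 1578, 1588 and 1540 with C1q and 2622, 2480 and 2389 in controls, a log2 fold change of -0.67 ± 0.06 (SE).

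The lid, which deubiquitinates substrates, had 8 of 8 genes lower and a median log2 fold change of -0.53. Psmd8, a lid subunit encoded at chr7:29174187-29180673 (GRCm38), fell more than any other member. It had 2088, 2000 and 1922 normalised counts with C1q, against 4806, 4473 and 3728 in controls. All C1q libraries of Psmd8 were far below the lowest control, and its log2 fold change was -1.11 ± 0.10 (SE, limma adjusted p = 3.17e-04). Psmd14, the deubiquitinase of the lid, had 1209, 1196 and 1154 with C1q and 1850, 1643 and 1594 in controls, a log2 fold change of -0.51 ± 0.07 (SE). Psmd7, which pairs with Psmd14, had 1945, 1941 and 2019 with C1q and 2759, 2562 and 2589 in controls, a log2 fold change of -0.42 ± 0.06 (SE). Both partners thus fell with groups that did not overlap. Psmd13, Psmd6, Psmd12 and Psmd3, structural subunits of the lid, had log2 fold changes of -0.69, -0.59, -0.54 and -0.53. Psmd11, another structural lid subunit, was the least moved, at 1389, 1346 and 1394 with C1q and 1915, 1634 and 1743 in controls, a log2 fold change of -0.35 ± 0.07 (SE).

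Promoters of 4 constitutive subunits that fell, Psmb3, Psmb5, Psmb6 and Psmd4, are shown as examples of genes that hold the motifs searched for, and were picked for those matches. Each promoter is from RefSeq (GRCm38.p6) and 300 bases long, from 250 before to 50 after a start of the gene. For Psmb6 the start used lies downstream of the first base of the gene at chr11:70525324. The 4 promoters lie at chr11:97703184-97703483 (plus strand), chr14:54617946-54618245 (minus strand), chr11:70525107-70525406 (plus strand) and chr3:95042565-95042864 (minus strand), in the order named above. Capitals mark matches, on either strand, to 4 sets of letters: the antioxidant response element core TGACNNNGC, the CCAAT box CCAAT, the ETS site CCGGAAG and the interferon-stimulated response element core, which is GAAA, any 2 bases and GAAA again. No match overlapped another in these promoters. A minus-strand match reads as the reverse complement, so that ATTGG is a CCAAT box.
Psmb3: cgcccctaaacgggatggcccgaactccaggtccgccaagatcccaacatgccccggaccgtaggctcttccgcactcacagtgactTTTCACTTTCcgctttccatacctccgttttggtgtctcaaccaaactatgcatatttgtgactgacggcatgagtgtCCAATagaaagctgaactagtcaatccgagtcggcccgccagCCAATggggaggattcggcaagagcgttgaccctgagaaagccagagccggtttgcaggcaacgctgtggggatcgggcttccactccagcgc
Psmb5: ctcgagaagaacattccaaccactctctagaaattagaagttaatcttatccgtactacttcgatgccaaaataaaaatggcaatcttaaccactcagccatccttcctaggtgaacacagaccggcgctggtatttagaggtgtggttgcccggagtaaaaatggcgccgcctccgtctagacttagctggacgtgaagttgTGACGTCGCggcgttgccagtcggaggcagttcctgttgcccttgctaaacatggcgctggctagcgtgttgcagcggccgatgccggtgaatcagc
Psmb6: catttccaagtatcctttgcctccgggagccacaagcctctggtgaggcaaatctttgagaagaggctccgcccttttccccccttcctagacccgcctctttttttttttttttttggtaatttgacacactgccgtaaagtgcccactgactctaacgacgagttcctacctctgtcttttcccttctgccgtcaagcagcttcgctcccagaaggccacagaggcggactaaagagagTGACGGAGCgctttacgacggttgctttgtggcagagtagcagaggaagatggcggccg
Psmd4: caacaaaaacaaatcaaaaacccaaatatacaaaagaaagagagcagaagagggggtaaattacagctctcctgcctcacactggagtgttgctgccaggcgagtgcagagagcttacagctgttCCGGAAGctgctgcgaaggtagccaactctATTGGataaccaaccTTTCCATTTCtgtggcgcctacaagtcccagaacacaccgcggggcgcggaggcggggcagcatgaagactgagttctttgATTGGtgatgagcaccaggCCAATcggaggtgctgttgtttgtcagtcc

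Psmb5 and Psmb6, both catalytic, each hold 1 antioxidant response element core. Its first base is at position -47 in Psmb5 and -9 in Psmb6, counted from the start used for each promoter. Psmb3 holds CCAAT boxes and 1 interferon-type core, and Psmd4 holds CCAAT boxes, 1 ETS site and 1 interferon-type core. Entries were found for 40 of the 48 proteasome genes, all but Psma8, Psmb1, Psmb2, Psmb7, Psmc3, Psmd3, Psmd7 and Psmg2. The ETS letters stood in 15 of the 40 genes (37.5%), against 9.93% of all 27025 genes with an entry and 21.0% of 5534 genes in the table with a mean normalised count of at least 500. The antioxidant response element core stood in 6 of 40 (15%), against 14% of all genes and 17.5% of those well counted. CCAAT stood in 13 of 40 (32.5%), against 41.1% and 41.7%. Of the 25 constitutive genes with an entry, 4 hold the antioxidant response element core and 2 the interferon-type core, so the examples are not typical. These matches describe letters only and say nothing of binding.

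Among assembly factors, 7 of 8 genes were lower, with a median log2 fold change of -0.50. Pomp, the chaperone that completes the 20S core, had 1108, 1083 and 1032 normalised counts with C1q, against 1926, 1903 and 1709 in controls. Its log2 fold change, -0.78 ± 0.07 (SE, limma adjusted p = 3.34e-04), was close to the median of the beta ring, and the groups did not overlap. Psmg1 to Psmg4 encode chaperones that build the alpha ring in pairs. Psmg1 had 287, 312 and 295 with C1q and 431, 472 and 459 in controls, a log2 fold change of -0.61 ± 0.09 (SE). Its partner Psmg2 had 209, 206 and 244 with C1q and 257, 287 and 259 in controls. The C1q libraries of Psmg2 lay below the controls, but its log2 fold change of -0.29 ± 0.11 (SE) did not pass (limma adjusted p = 0.0810). Psmg4 had 86.7, 100.4 and 81.4 with C1q and 139.8, 243 and 187 in controls. The groups of Psmg4 did not overlap, and its log2 fold change was -1.05 ± 0.22 (SE), with a wide spread among controls. Its partner Psmg3 had 171, 167 and 161 with C1q and 235, 253 and 208 in controls, a log2 fold change of -0.47 ± 0.12 (SE), no longer called without C1q replicate 2 (adjusted p = 0.0531) or 3 (0.0634). The chaperones of the 19S base also fell, with log2 fold changes of -0.52 for Psmd10, -0.39 for Psmd9 and -0.36 for Psmd5. Psmd5 was not called without C1q replicate 2 or 3 or control replicate 1 or 3, with limma adjusted p-values of 0.0548 to 0.0912.

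Of the 5 immunoproteasome genes, 1 was lower and 0 were higher, where 18.7% of all genes were lower and 19.7% were higher. Their median log2 fold change was -0.29. Psmb9, the interferon-induced counterpart of Psmb6, had normalised counts of 83.8, 97.5 and 97.9 with C1q, against 29.7, 105 and 29.8 in controls. These rest on 119, 100 and 131 reads with C1q and on 51, 136 and 7 reads in controls. The C1q libraries were close to each other, 2 controls lay far below them and control 2 lay above them. The log2 fold change of 1.01 ± 0.47 (SE) did not pass (limma adjusted p = 0.126). Without control 2 it was 1.61 ± 0.20 (SE, adjusted p = 0.00234), where 18% of all genes were higher. That fit drops the only control above the C1q libraries, so it gives no separate support for a rise. Over all single libraries left out, the estimate ran from 0.72 to 1.61, with limma adjusted p-values of up to 0.302. Psmb8, the counterpart of Psmb5, had 397, 582 and 462 with C1q and 254, 603 and 408 in controls, a log2 fold change of 0.26 ± 0.30 (SE, limma adjusted p = 0.530). Its groups overlapped throughout. Psmb10, the counterpart of Psmb7, had 469, 522 and 445 with C1q and 512, 792 and 574 in controls, a log2 fold change of -0.37 ± 0.16 (SE, limma adjusted p = 0.113, or 0.0356 where pairs of equal replicate number form a block). Psme1, an activator subunit, had 1206, 1277 and 1281 with C1q and 1342, 1861 and 1445 in controls. Its log2 fold change was -0.29 ± 0.12 (SE, limma adjusted p = 0.0937, or 0.0483 with that block), though the groups did not overlap. Psme2, its partner, was the 1 immunoproteasome gene called, at 705, 802 and 708 with C1q and 950, 1256 and 961 in controls. Its log2 fold change was -0.50 ± 0.12 (SE, limma adjusted p = 0.0138), with adjusted p-values of 0.0534 without C1q replicate 1 and 0.0533 without C1q replicate 3.

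All 5 immunoproteasome genes were highest among controls in control 2. Of 13 genes reported for MHC class I presentation, 6 were highest there. H2-K1, Tapbp, Erap1, Nlrc5, Calr, Pdia3 and Canx were highest in control 1 or 3. The share of all genes highest in control 2 was not counted. Of the endothelial markers, Pecam1, Cdh5, Tek and Cldn5 were highest among controls in control 2, and Kdr, Emcn and Vwf in control 3. Pecam1 was at 4.93, 13.6 and 5.98 with C1q and at 0.583, 95.0 and 0 in controls. Cdh5 was at 28.9, 45.8 and 47.8 with C1q and at 26.8, 160 and 29.8 in controls. Over the whole endothelial list the sum was 604 to 1301 with C1q and 655 to 1331 in controls. Tek made up most of that sum, with a mean of 854 with C1q and 716 in controls. The summed immune markers were 60.6, 175 and 54.5 with C1q and 129, 126 and 106 in controls, with Tyrobp at 0 in C1q 1, C1q 3, control 1 and control 3. The part of these cells in the levels of the immunoproteasome genes was not tested.

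**Figure D2:**
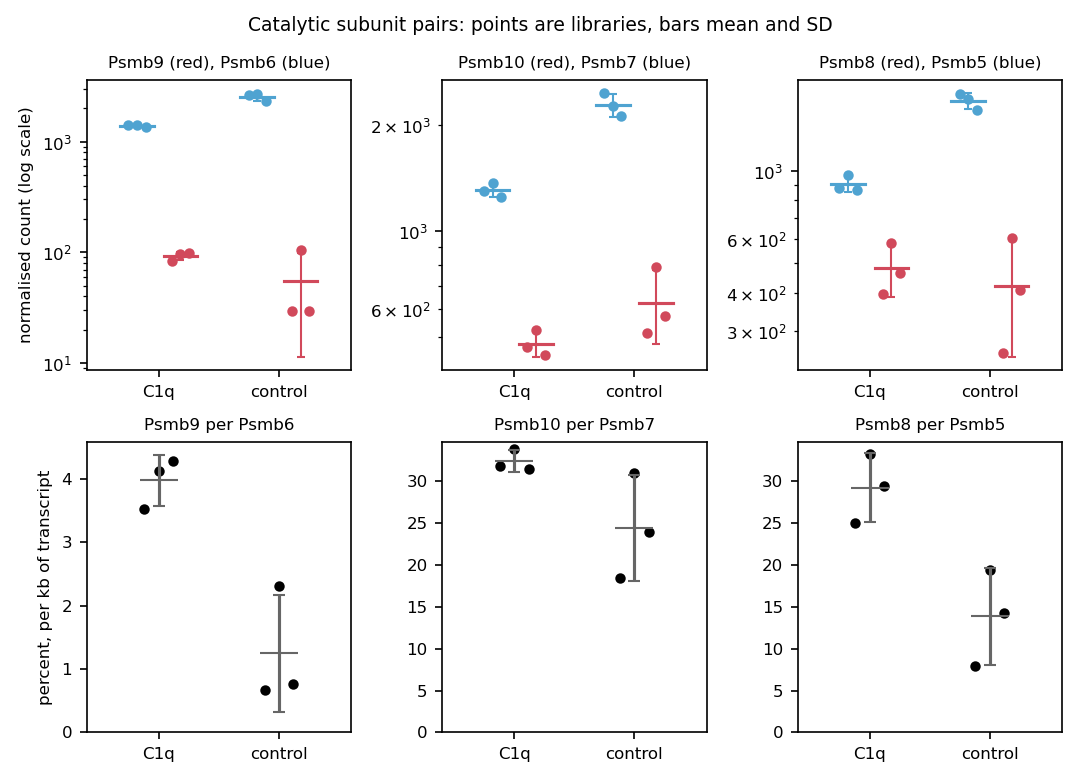
The upper row gives normalised counts (log scale) of each interferon-induced catalytic subunit in red and its constitutive counterpart in blue, and the lower row gives the induced subunit as a percent of its counterpart per kilobase of transcript. Points are libraries, and bars are the mean and SD of the 3 libraries of a group. Each lower panel has all C1q libraries above all controls, with the closest approach for Psmb10 per Psmb7 in control 2, at 31.0%.

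Each interferon-induced catalytic subunit replaces a constitutive one in newly built cores, so their ratio was compared within each library. Per kilobase of transcript, Psmb9 stood at 3.53%, 4.12% and 4.29% of Psmb6 with C1q, against 0.673%, 2.31% and 0.762% in controls. Psmb8 stood at 25.0%, 33.3% and 29.5% of Psmb5 with C1q, against 7.91%, 19.4% and 14.3% in controls. Psmb10 stood at 31.8%, 33.8% and 31.4% of Psmb7 with C1q, against 18.4%, 31.0% and 23.9% in controls. For all 3 pairs every C1q library lay above every control, and the mean log2 ratio was higher by 1.91, 1.16 and 0.44 in that order. The partners Psmb6, Psmb5 and Psmb7 were themselves lower, at -0.87, -0.90 and -0.80, while Psmb9, Psmb8 and Psmb10 did not pass, with Psmb10 at -0.37. The partners also have shorter transcripts, of 798, 899 and 1160 bases against 1352, 1628 and 1311. The part of the length trend in these ratios was not tested, and the share of other gene pairs so separated was not counted. The exact two-sided permutation test gave p = 0.1 for each pair and 0.1 after adjustment over the 3 pairs, the smallest value that 3 libraries against 3 allow. These pairs could therefore not reach the 0.05 threshold.

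Promoters of Psmb8 and Psmb9 are shown beside those above, since these were the proteasome genes with estimates above 0. They lie at chr17:34197945-34198244 (plus strand) and chr17:34187281-34187580 (minus strand), in the same RefSeq build and with the same meaning of capitals.
Psmb8: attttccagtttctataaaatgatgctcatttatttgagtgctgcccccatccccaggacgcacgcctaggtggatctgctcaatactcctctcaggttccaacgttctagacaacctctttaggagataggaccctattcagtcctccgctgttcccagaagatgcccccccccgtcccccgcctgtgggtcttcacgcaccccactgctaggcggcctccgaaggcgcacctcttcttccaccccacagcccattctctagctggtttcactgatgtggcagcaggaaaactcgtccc
Psmb9: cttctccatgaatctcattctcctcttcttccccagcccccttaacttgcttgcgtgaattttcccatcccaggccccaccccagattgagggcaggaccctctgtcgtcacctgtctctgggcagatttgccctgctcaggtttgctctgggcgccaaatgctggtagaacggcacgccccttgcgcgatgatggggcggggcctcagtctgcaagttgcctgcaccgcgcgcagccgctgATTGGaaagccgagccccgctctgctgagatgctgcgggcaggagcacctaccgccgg

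Psmb9 holds 1 CCAAT box, on the opposite strand, and Psmb8 holds none of the 4 sets of letters. Of the 5 immunoproteasome genes, 0 held the antioxidant response element core or the ETS letters, and Psme1 held the interferon-type core. That core stood in 5 of 40 proteasome genes (12.5%), against 3.99% of all genes with an entry.

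The remaining regulators did not pass the test. Psme3, the nuclear activator, had 1740, 1774 and 1650 normalised counts with C1q and 2119, 2126 and 1807 in controls, a log2 fold change of -0.23 ± 0.08 (SE, limma adjusted p = 0.0632, and 0.0356 with the replicate block). The highest C1q library of Psme3 lay just under the lowest control. Psme4, a large single-chain activator, had 1733, 1842 and 1772 with C1q and 2437, 1988 and 1577 in controls, a log2 fold change of -0.14 ± 0.14 (SE, limma adjusted p = 0.464). Its controls spanned the C1q values. Without control replicate 3 Psme4 was called, at -0.31 ± 0.10 (SE, adjusted p = 0.0388), and without control replicate 1 its log2 fold change was 0.0088. Psmf1, a regulator of proteasome activity, had 841, 832 and 819 with C1q and 848, 941 and 965 in controls, a log2 fold change of -0.14 ± 0.07 (SE, limma adjusted p = 0.165). Of the symbol matches that are no proteasome genes, Psme3ip1 was lower at -0.30 ± 0.07 (SE, limma adjusted p = 0.00909) and Psmc3ip was not called at -0.18 ± 0.31 (SE).

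Transcript length moved with the fold change in these libraries. Constitutive subunits have principal transcripts of 766 to 3112 bases. Among the 3126 genes with a mean of at least 500 and a transcript no longer than 3112 bases, 49.5% were lower with C1q and 10.2% were higher, with a median log2 fold change of -0.26. Over all 6897 genes with that mean, 28.8% were lower and 28.2% were higher. After a smooth trend of expression with length was removed from each library, 27 of the 31 constitutive subunits were called lower, where 18.7% of the 14934 genes with a length were lower and 14.2% were higher. Among the 3126 genes within those bounds of mean and length the shares were then 32.2% and 13.9%. These genes are not matched in length to the 31 subunits: their median transcript has 2045.5 bases, against 1540. The median log2 fold change of the 31 constitutive subunits was then -0.41, against -0.11 for those 3126 genes. All 31 estimates stayed below 0, from -0.87 to -0.07. Psma1, Psma6, Psmb2 and Psmd7 were no longer called. The 19S base kept 9 of 9, the lid 7 of 8, the beta ring 6 of 7 and the alpha ring 5 of 7. Psmd8, Psma3 and Psma2 had the lowest values, at -0.87, -0.82 and -0.80. Across the 31 subunits, which share the same 6 libraries, Spearman's rho between length and log2 fold change was 0.514 before the removal and -0.468 after it, so the corrected values run the opposite way with length. Assembly factors kept 3 of 8, with Pomp at -0.56, while Psmg4 moved to -0.33 (limma adjusted p = 0.238) and Psmg3 to 0.03 (0.825). Psme3, Psme4 and Psmf1 were called lower after the removal, at -0.23, -0.55 and -0.29. The immunoproteasome genes had a median of 0.11 and none was called. Psme2 was at -0.04 (adjusted p = 0.788), Psmb8 at 0.46 (0.254) and Psmb9 at 1.31 (0.0570). With the replicate block as well, Psmb8 (adjusted p = 0.0381) and Psmb9 (0.0268) were called higher, as were 16.1% of genes.

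**Figure D3:**
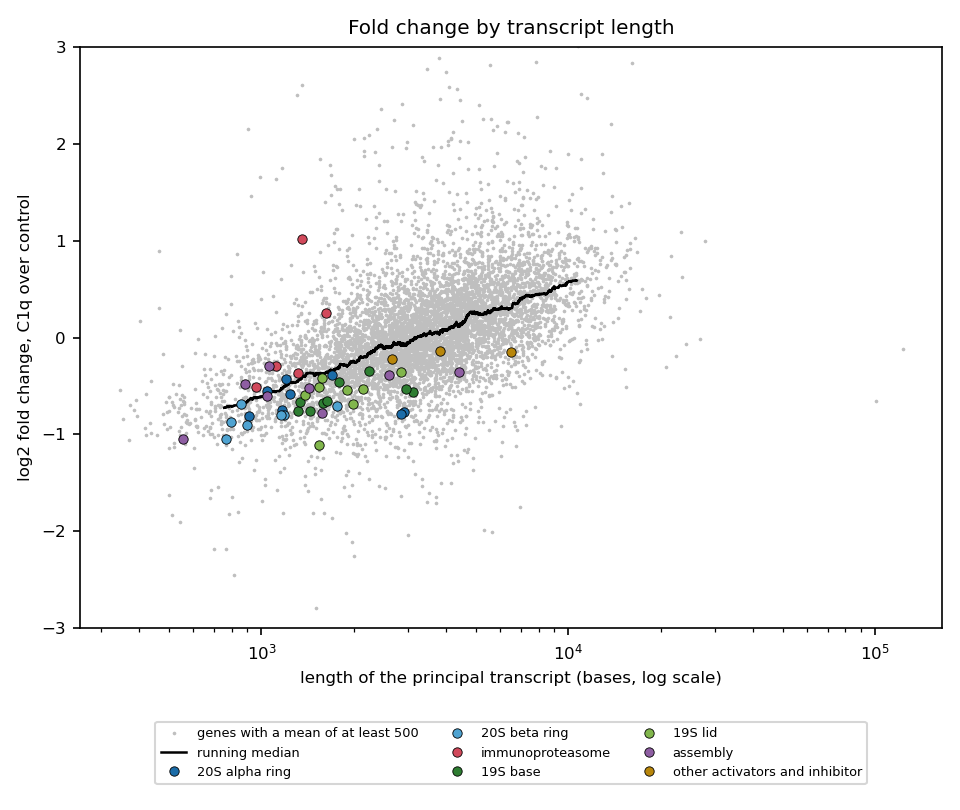
Log2 fold change, C1q over control, against the length of the principal transcript, or of the longest one where none is marked principal (log scale). Grey points are the 6854 genes with a mean normalised count of at least 500 and a known length, of which 10 lie beyond the axis at 3, the black line is a running median over genes ordered by length, and coloured points are the proteasome genes of each class, also those under that mean. Short transcripts lie lower than long ones, most constitutive subunits lie under the line, and Psmb9 and Psmb8 lie above it.

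Within groups, the coefficient of variation of the 31 constitutive subunits had a median of 2.41% with C1q and 5.96% in controls, and it was larger in controls for 30 of 31. Control 1 was the highest control for 21 of the 31 subunits, control 2 for 9 and control 3 for 1. Control 3 was the lowest for 23, and the smallest read count of a constitutive subunit, 323, was in that library. Leaving out any single library kept all 31 subunits called, with adjusted p-values of at most 0.0365. Without control 1, the library with the highest sum of muscle lineage markers, the median of the 31 was -0.63, and 40 of the 48 proteasome genes were lower (15.5% of all genes). Control 2, which stayed in, still had a muscle lineage sum of 48543, and control 3 had 26790, against at most 24668.5 with C1q. The part of the muscle lineage, FAP, mural and glial markers in these levels was not tested.

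**Figure D4:**
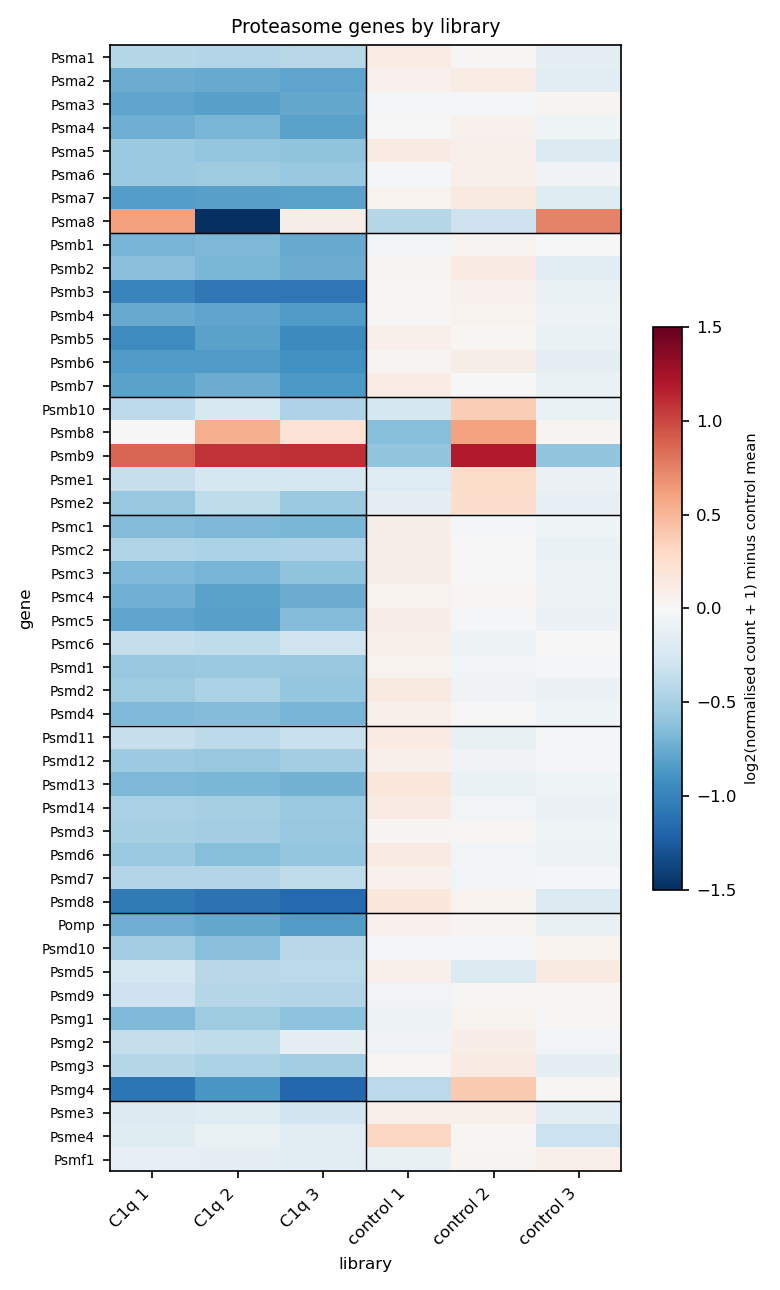
Each row is a proteasome gene and each column a library, with C1q replicates left and control replicates right. Colour gives log2(normalised count + 1) minus the mean of the 3 controls, shown within 1.5 of 0, so that 1 value of Psma8 lies beyond the scale. The 31 constitutive subunits are blue in all C1q libraries, and control 2 has the warmest colour among controls for Psmb8, Psmb9, Psmb10, Psme1 and Psme2.

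Of 12 proteasome-associated genes measured, 6 were lower and 2 were higher, where 18.7% of all genes were lower and 19.7% were higher. With the length trend removed, 7 were lower (18.7% of the genes with a length) and neither higher call held. Adrm1, a ubiquitin receptor of the 19S base, averaged 1294 ± 74.2 normalised counts with C1q and 1888 ± 49.7 in controls (SD, n = 3 each). Sem1, a small lid subunit whose symbol lies outside the naming rule, averaged 1239 ± 30.5 with C1q and 2015 ± 98.9 in controls (SD, n = 3 each). Uchl5, the deubiquitinase that Adrm1 binds, averaged 259 ± 10.6 with C1q and 422 ± 35.9 in controls (SD, n = 3 each). Their log2 fold changes of -0.55, -0.70 and -0.70 fell within the range of the constitutive subunits. Ecpas, a scaffold protein, and Ube3c, a ubiquitin ligase, both of which bind the proteasome, were higher at 0.44 and 0.24, and at 0.00 and -0.04 with the length trend removed. Of 4 genes reported for ubiquitin and its activating enzymes, Rps27a, which encodes ubiquitin fused to a ribosomal protein, was lower at -0.94, and Uba6, an activating enzyme, was higher at 0.96. With the length trend removed, Rps27a was at -0.38 and not called (limma adjusted p = 0.0698), and Uba6 was still higher at 0.55. Ubb, a polyubiquitin gene, was at 0.07 and Uba1, the main activating enzyme, was at -0.09, and neither passed. With the length trend removed Ubb was called higher at 0.32 (limma adjusted p = 0.00876) and Uba1 lower at -0.27 (0.0203). Of 13 shuttle and segregase genes, 5 were lower and 2 were higher, with Ufd1 at -0.47 and Nsfl1c, which are both cofactors of the segregase Vcp, at -0.51. With the length trend removed, 9 were lower (18.7% of the genes with a length) and neither higher call held.

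**Figure D5:**
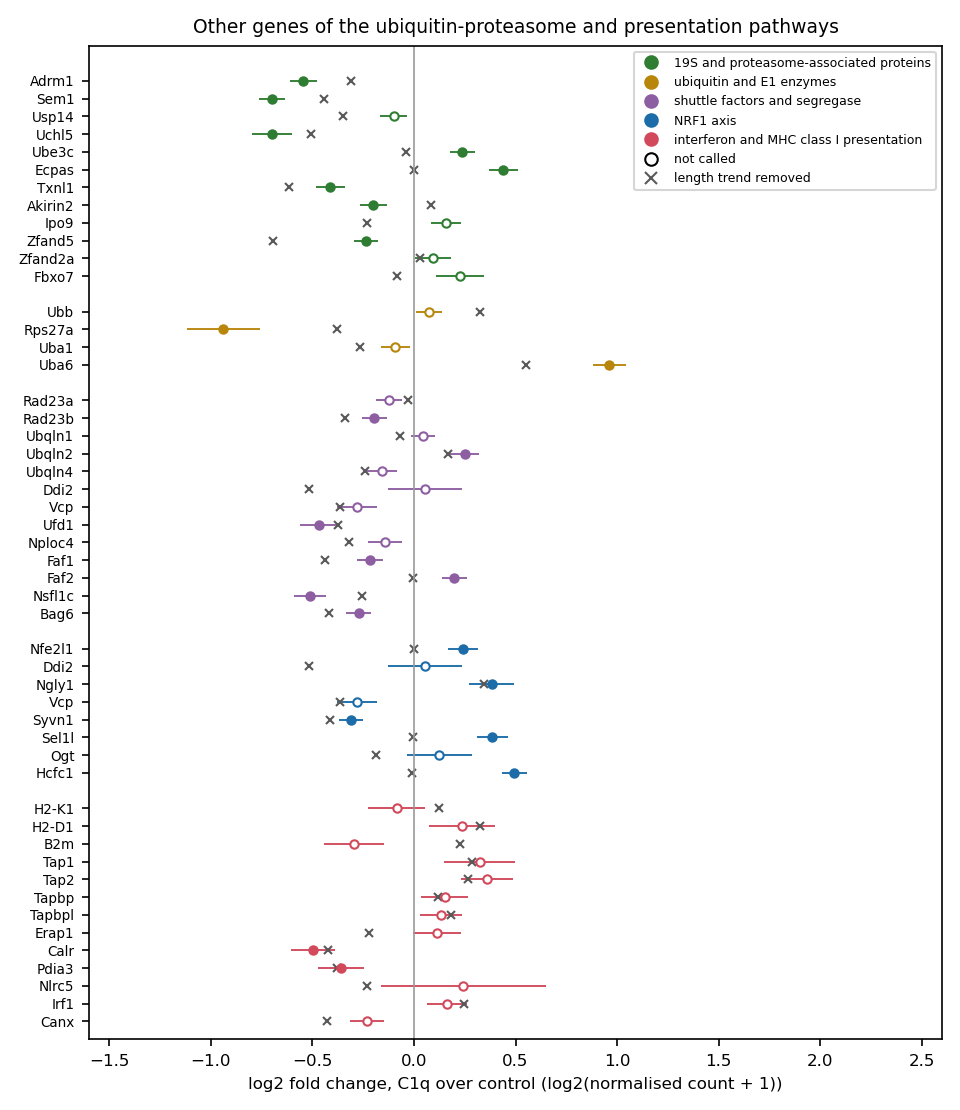
Log2 fold change, C1q over control, of the genes of 5 related lists, on the scale of log2(normalised count + 1). Circles with bars are the estimate and its standard error (n = 3 libraries a group), open circles did not pass the test, and crosses are the estimate with the length trend removed. Adrm1, Sem1, Uchl5 and Rps27a lie below -0.5, Uba6 lies at 0.96, and most presentation genes are open circles.

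NRF1, the activator of proteasome genes known from the response to proteasome inhibition, was taken with the factors that process it. Of these 8 genes, 1 was lower and 4 were higher, where 18.7% of all genes were lower and 19.7% were higher. Nfe2l1, which encodes NRF1, averaged 9920 ± 448 normalised counts with C1q and 8393 ± 412 in controls (SD, n = 3 each). Its log2 fold change was 0.24 ± 0.07 (SE, limma adjusted p = 0.0365), and 0.00 with the length trend removed. Ngly1, the deglycosylase of NRF1, and the regulators Sel1l and Hcfc1 were higher at 0.38, 0.39 and 0.49, and Syvn1, a ligase of endoplasmic reticulum degradation, was lower at -0.31. With the length trend removed, Sel1l and Hcfc1 were at 0.00 and -0.01 and Ngly1 at 0.35 (adjusted p = 0.0587), and none was called. Then 3 of the 8 genes were lower (18.7% of the genes with a length): Syvn1 at -0.41, Vcp at -0.36 (limma adjusted p = 0.0218) and Ddi2 at -0.52 (0.0378). Without the removal, Vcp was at -0.28 (limma adjusted p = 0.0551, or 0.0496 with the replicate block). Ddi2, the protease that cleaves NRF1, averaged 329 ± 73.5 with C1q and 314 ± 44.1 in controls (SD, n = 3 each) and did not pass without it.

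Of 13 genes reported for MHC class I presentation and interferon signalling, which act downstream or upstream of the immunoproteasome, 2 were lower and 11 did not pass. Over all genes 18.7% were lower and 19.7% were higher. Calr and Pdia3, chaperones that load class I molecules, were lower at -0.50 and -0.36. Tap1, a subunit of the peptide transporter whose gene adjoins Psmb9 on the opposite strand, averaged 560 ± 87.7 normalised counts with C1q and 450 ± 98.4 in controls (SD, n = 3 each) and did not pass (limma adjusted p = 0.185, or 0.0454 with the replicate block). Tap2, the other subunit, was at 0.36 on the log2 scale (limma adjusted p = 0.0585, or 0.0246 with the block). Exons of 11 of the 48 proteasome genes overlap a gene on the other strand in the GENCODE vM21 annotation, and no strand setting is given, so reads there cannot be told apart. Psmb9 and Tap1 are 1 such pair in GENCODE, but their RefSeq coordinates do not overlap, and the annotation used for counting is unknown.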

How the data were processed

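Bulk RNA was sequenced from 6 libraries of mouse FAPs, 3 given C1q and 3 given vehicle. The deposited values are a normalised signal: featureCounts read counts per Entrez gene, per the file headers, divided by 1 size factor per library, as the values themselves show. The submitters' processing notes name Trimmomatic, HISAT2, featureCounts, DESeq2 and the mm10 build, without versions. No source used here gives the annotation or the strandedness of counting. All low values (100% within 0.001 of a read) were whole multiples of 1 read's worth, so reads were recovered, and depth was 5379209 to 38861152 reads a library. A gene with few reads is therefore least precise in control 3.

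Values were tested as log2(value + 1) with limma 3.58.1 (R 4.3.3), trend on, across all 16671 genes with a mean of at least 1, with Benjamini-Hochberg adjustment and a threshold of 0.05. A log2 fold change on this scale understates the change of low genes. Count tests with edgeR 4.0.16 (quasi-likelihood) and DESeq2 1.42.0 ran on recovered reads. Symbols were matched for 16077 of 16671 gene identifiers, and transcript lengths (GENCODE vM21, GRCm38) for 14934. The length is that of the longest principal transcript for 14655 of these, and of the longest transcript for the others. The length trend was a loess fit with a span of 0.5 in each library. Same-numbered C1q and control libraries deviated together, though weakly (correlations of 0.123, 0.175 and 0.132). The numbers were therefore taken to pair libraries in the fits with a replicate block, and not in the main test. This pairing comes from the data, not the labels, so p-values with the block are not independent of the values tested. The script was tested on simulated data. Every symbol match and all genes of the lists could be named, except some list genes that are not reported here, which were taken out of the lists and their counts. Members and lists were chosen with earlier results of these data known. Psmb11, Psme2b and the pseudogenes of Psma5, Psmb5, Psmb6 and Psmb7 were not analysed here, and paralogous reads could be split by the counting.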

Additional observations from a re-analysis of the deposited data

How the results depend on the processing

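The 31 constitutive 20S and 19S subunits stayed lower with C1q in direction under every alternative run. All 31 were called except when libraries were thinned to the shallowest one (30, without Psmc6) and when a length trend was removed (27 with the principal transcript, 24 with the longest, an alternative chosen after seeing the data). Over the same settings 30 to 42 of 48 proteasome genes were lower, and 13.6% to 25.1% of the genes tested, with the ends of these ranges in different settings. The fewest proteasome genes were lower with the longest-transcript trend removed (18.8% of the genes tested). The most were lower with the replicate block (19.7%) or a GC trend removed (22.2%). The cause of these differences was not tested.

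Proteasome genes called higher numbered 0, but 1 without control replicate 2 (Psmb9, range 0 to 1 over left-out libraries) and 2 with the length trend removed and the replicate block (Psmb9 and Psmb8). The same values hold for the immunoproteasome genes higher. Immunoproteasome genes called lower numbered 1, but 3 with the replicate block, 0 to 3 over left-out libraries (0 without C1q replicate 1 or 3, 3 without control replicate 1), 0 with the length trend removed, with or without the block, and 0 with the longest-transcript trend. Without the length removal, the block changed the calls of Psmb10, Psme1 and Psme3 and of no other proteasome gene. In the related lists it lost Akirin2, Rad23b and Faf2 (adjusted p of 0.0501 to 0.0588) and gained Vcp, Tap1 and Tap2.

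The sign turned for some members outside the constitutive 31, among them Psmg3 and Psme2, which were called lower before. Over left-out libraries the log2 fold change ran from -0.31 to 0.0088 for Psme4 (the highest without control replicate 1), from -0.064 (without control replicate 1) to 0.56 for Psmb8, and from -0.89 to 0.35 (without C1q replicate 2) for Psma8. With the length trend removed, with or without the block, it was 0.14 for Psmc3ip, 0.11 for Psme1, 0.13 for Psmg2 and 0.034 for Psmg3. With the longest-transcript trend it was 0.19 for Psmc3ip, 0.012 for Psme2, 0.081 for Psmg2 and 0.0011 for Psmb10. Thinning gave 0.057 for Psmc3ip. Psma8, with few reads, was at 0.19 with edgeR, 0.20 with edgeR's RLE scaling, 0.16 without a filter on low counts and 0.0064 with DESeq2.

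Limits are the 3 libraries a group, the shallow control 3, an unstated strand setting, the difference of muscle lineage markers between groups, and a length trend whose origin was not tested.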
